A study of Homo sapiens with 2 samples.

Results

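The genes described here encode PKR (EIF2AK2), the other kinases of the translation initiation factor eIF2 (EIF2AK1, EIF2AK3 and EIF2AK4), the alpha subunit of eIF2 that they phosphorylate (EIF2S1), and the 5 subunits of eIF2B (EIF2B1 to EIF2B5). They were chosen by name: the rows of the deposited gene count table whose Ensembl identifiers match these symbols, 10 genes of the 63677 in the table. RNA was sequenced from 2 libraries of HGC-27, an established human gastric carcinoma cell line. The control culture was transfected with the empty plasmid pcDNA3.1 and the other with pcDNA3.1 carrying the long non-coding RNA lncPSCA, both with the reagent INTERFERin, and both were collected 48 hours later. Nothing in the labels tells how many cells took up a plasmid, and the lncPSCA culture carries an insert that the control lacks. Each group is a single library, so a difference cannot be set against a spread between cultures and was not tested; the 95% intervals given cover counting error only.

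eIF2 carries the initiator tRNA to the ribosome as a complex with GTP. After each round of initiation eIF2B, a guanine nucleotide exchange factor, recharges eIF2 with GTP. When one of the kinases phosphorylates the alpha subunit, eIF2 binds eIF2B tightly and inhibits it, general translation slows, and a few mRNAs such as that of the transcription factor ATF4 are translated more; this is the integrated stress response. Each kinase answers another stress: PKR binds double-stranded RNA and its gene is induced by interferon, HRI (EIF2AK1) responds to low heme and to mitochondrial stress, PERK (EIF2AK3) to misfolded proteins in the endoplasmic reticulum, and GCN2 (EIF2AK4) to amino acid shortage. Phosphorylation, protein levels and translation were not measured here, only transcript abundance.

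The promoter of EIF2AK2 is shown because EIF2AK2 was the only one of the 10 genes that met the rule for a difference, and because its sequence contains a motif of interferon-regulated genes. The stretch below is the RefSeq promoter on GRCh38.p14, chr2:37156931-37157230, minus strand, written 5′ to 3′ from 250 bases before to 50 bases after the annotated start. The capitals mark the match to the core of the interferon-stimulated response element, searched as GAAANNGAAA on both strands.
EIF2AK2 promoter: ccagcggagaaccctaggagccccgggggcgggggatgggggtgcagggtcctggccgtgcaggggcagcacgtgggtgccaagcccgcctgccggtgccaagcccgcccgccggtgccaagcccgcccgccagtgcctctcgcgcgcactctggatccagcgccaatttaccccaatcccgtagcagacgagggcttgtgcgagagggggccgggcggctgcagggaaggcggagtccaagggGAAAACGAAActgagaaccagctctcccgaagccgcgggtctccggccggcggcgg
The match begins 6 bases before the annotated start and so runs across it. Promoters were on hand for 9 of the 10 genes, and EIF2AK2 was the only one of these 9 with a match. Over all 35116 promoters of the same length 3.57% had one. The promoter of EIF2AK1 was not among the sequences used here.

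PKR belongs by function to the sensors and effectors of double-stranded RNA. Promoters were on hand for 5 of 10 such listed genes, and 3 of them had a match. Of the genes with a match, OAS3 was 45.2-fold higher in the lncPSCA library and TLR3 5.90-fold (38 and 250 reads). IFIH1, also with a match, had 0 and 88 reads. OAS1 and RIGI had no match, and were 55.2-fold and 46.1-fold higher. ADAR, an editor of double-stranded RNA that was 3.0-fold higher, had no match in its promoters either. The first matches of OAS3, IFIH1 and TLR3 are set beside that of EIF2AK2 to show the shared bases. The windows are of 30 bases with the match in capitals, each as read along the strand of its gene.
EIF2AK2 (chr2:37156967-37156996, minus strand): agtccaagggGAAAACGAAActgagaacca
OAS3 (chr12:112938321-112938350, plus strand): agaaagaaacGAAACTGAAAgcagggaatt
IFIH1 (chr2:162318686-162318715, minus strand): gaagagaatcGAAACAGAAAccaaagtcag
TLR3 (chr4:186069142-186069171, plus strand): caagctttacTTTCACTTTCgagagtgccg
The TLR3 match lies on the opposite strand of its promoter, and the OAS3 and IFIH1 promoters hold 2 and 3 matches in all. A match describes letters only and is not evidence that a factor binds. Of 414 measured genes whose promoter held the core, 58 (14.0%) were higher in the lncPSCA library by the rule given next, against 254 of 10255 genes without it (2.48%). The longer form GAAANNGAAACT, an extension of the core that EIF2AK2 has and that was searched after its sequence had been seen, was in 0.273% of promoters. Of the 41 measured genes with the longer form, EIF2AK2 among them, 20 (48.8%) were higher, against 292 of 10628 genes without it (2.75%). The form was taken from EIF2AK2, a gene already called higher, so this share is a description and not a test. None of the 5 listed double-stranded RNA genes with a promoter had the longer form.

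Reads were scaled to CPM, the counts of a gene per 1000000 counts of its library. A gene counts as measured at a mean of at least 1 CPM over both libraries, which 15440 genes and all 10 described here reached. A gene is called higher or lower in the lncPSCA library if it differed at least 2-fold, computed on counts plus a pseudocount of 1, and if its counting interval lay wholly beyond 1.5-fold. By this rule 1 of the 10 genes was higher and none was lower, and the other 9 fell short of it. The share called higher over the whole table was 3.02% of measured genes, and the share called lower was 0.596%. The median log2 ratio of lncPSCA over control was -0.16 for the 10 genes and -0.02 for all measured genes.

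The libraries themselves were of similar depth, with 21552098 counts in control and 23016646 in lncPSCA. The table has no row for lncPSCA itself; the row of PSCA, whose name it shares, had 22 and 28699 reads. The cells had few reads of epithelial markers: of 5 markers KRT8 had 66 and 58 reads, CDH1 26 and 20, EPCAM 7 in each, KRT18 4 and 0, and CDH17 none. VIM, the mesenchymal filament vimentin, had 54877 and 60997 reads. Of the other mesenchymal markers FN1, fibronectin, met the rule as higher at 2.35-fold (2.13 to 2.59; 554 and 1448 reads), and CDH2 had 4 and 6 reads. No gastric mucosa marker exceeded 4 reads, and 3 of the 5 were at 0 in both libraries. The 4 leukocyte markers summed to 3.89 CPM in control and 3.79 CPM in lncPSCA, with CD3E at 0 in both. The reads come from whole cultures, so a small difference in every cell and a large one in some cells cannot be told apart.

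Of the kinases, PKR alone met the rule. EIF2AK2 (ENSG00000055332) had 2179 control reads against 8751 with lncPSCA, which corresponds to 103 and 372 CPM. This was a 3.60-fold higher level (3.44 to 3.78), a log2 ratio of 1.85. Of all measured genes, 99.1% had a smaller ratio. EIF2AK2 shares 35 exon bases with GPATCH11, a gene on the opposite strand, in GENCODE release 29. GPATCH11 had 836 and 535 reads, a log2 ratio of -0.80. A processed pseudogene, AC007899.1, lies opposite 401 bases of EIF2AK2 exon (3.90% of its exon length) and had 69 and 366 reads, a log2 ratio of 2.24. The strand setting of the authors' counting is not given, so reads of EIF2AK2 and of this pseudogene cannot be told apart over the shared bases.

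HRI stood at the same level in both libraries. EIF2AK1 (ENSG00000086232) had 6932 and 7722 reads, or 329 and 328 CPM, a fold of 1.0 with an interval of 0.968 to 1.03. It shares 532 exon bases (11.9%) with AIMP2 on the opposite strand, which had 6946 and 7446 reads and a log2 ratio of -0.06. PERK had the fewest reads of the kinases. EIF2AK3 (ENSG00000172071) had 384 and 514 reads, or 18.2 and 21.9 CPM, a fold of 1.20 (1.05 to 1.37). GCN2 lay between: EIF2AK4 (ENSG00000128829) had 1246 and 1501 reads, or 59.1 and 63.8 CPM, a fold of 1.08 (1.002 to 1.17). The intervals of PERK and GCN2 lay wholly above 1, as they did for 27.0% of all measured genes, and neither came near the 2-fold limit. EIF2AK3 shares 781 exon bases (16.2%) with the antisense gene AC104134.1, which had 94 and 100 reads. When the ratios were centred along transcript length, that of EIF2AK4 changed sign, to -0.06.

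**Figure D1:**
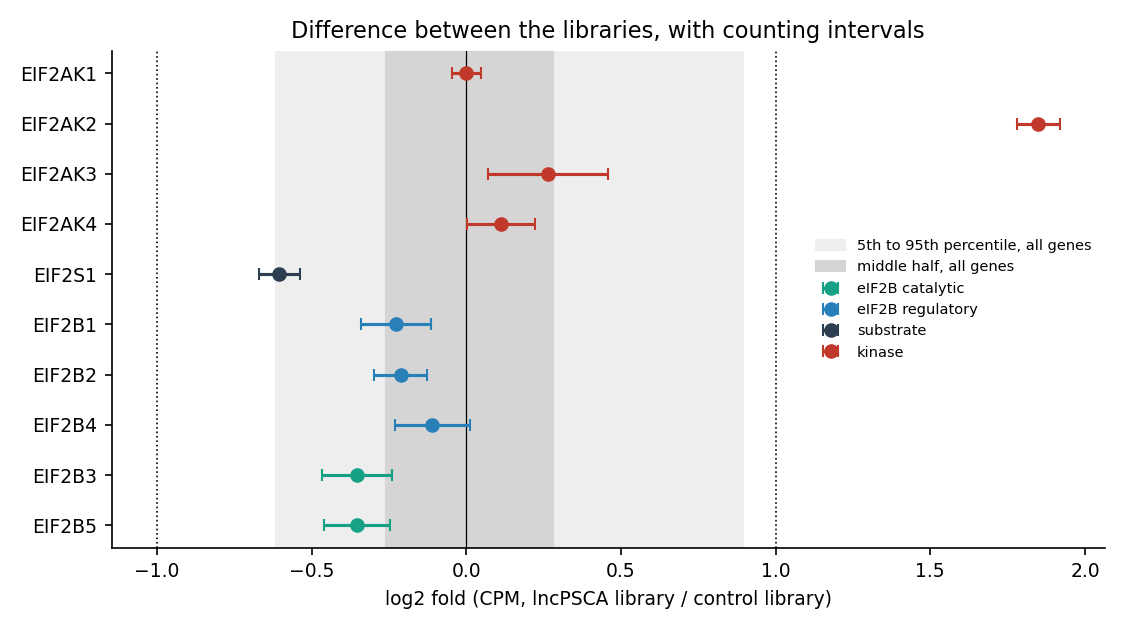
Log2 fold of CPM, lncPSCA library over control library, on the horizontal axis for each of the 10 genes, coloured by role; bars are exact 95% counting intervals, the grey bands span the 25th to 75th and the 5th to 95th percentiles of all measured genes, and dotted lines mark 2-fold. EIF2AK2 lies at 1.85, beyond the dotted line, EIF2AK1 lies at 0, and EIF2S1 and the eIF2B subunits lie to the left of 0.

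Because the kinases were counted in the same libraries, their reads can be set against each other without any scaling between libraries. For each read of EIF2AK1 there were 0.314 reads of EIF2AK2 in control and 1.13 with lncPSCA. This ratio was 3.61-fold larger (3.40 to 3.82). Against EIF2AK4 the ratio went from 1.75 to 5.83, 3.33-fold larger (3.05 to 3.65), and against EIF2AK3 from 5.67 to 17.0, 3.0-fold larger (2.60 to 3.46). The gain of EIF2AK2 was thus seen against each of the other kinases, but these ratios share the same EIF2AK2 reads and are not separate observations. The ratio of EIF2AK4 to EIF2AK1 changed 1.08-fold (0.996 to 1.17), an interval that includes 1, and that of EIF2AK3 to EIF2AK1 changed 1.20-fold (1.05 to 1.38).

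Levels of different genes were compared as CPM per kilobase (kb) of annotated exon. In the control library the kinases ranked HRI (73.5), PKR (10.0), GCN2 (7.88) and PERK (3.77). In the lncPSCA library the order was the same, with HRI at 73.5, PKR at 36.2, GCN2 at 8.52 and PERK at 4.52. The counting intervals of neighbouring kinases in this order did not overlap in either library. PKR made up 10.6% of the summed level of the kinases in control and 29.5% in lncPSCA, and HRI 77.2% and 59.9%. Which kinase led depended on the length used, since the annotated exons of EIF2AK2 span 10276 bases and its coding sequence 1653. Per kb of coding sequence, PKR was at 62.5 in control, below HRI at 174, and at 225 in lncPSCA, above HRI at 174. On that basis PKR made up 24.6% of the kinase sum in control and 53.8% in lncPSCA. The transcript isoforms present were not measured, so the data do not decide between the lengths.

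**Figure D2:**
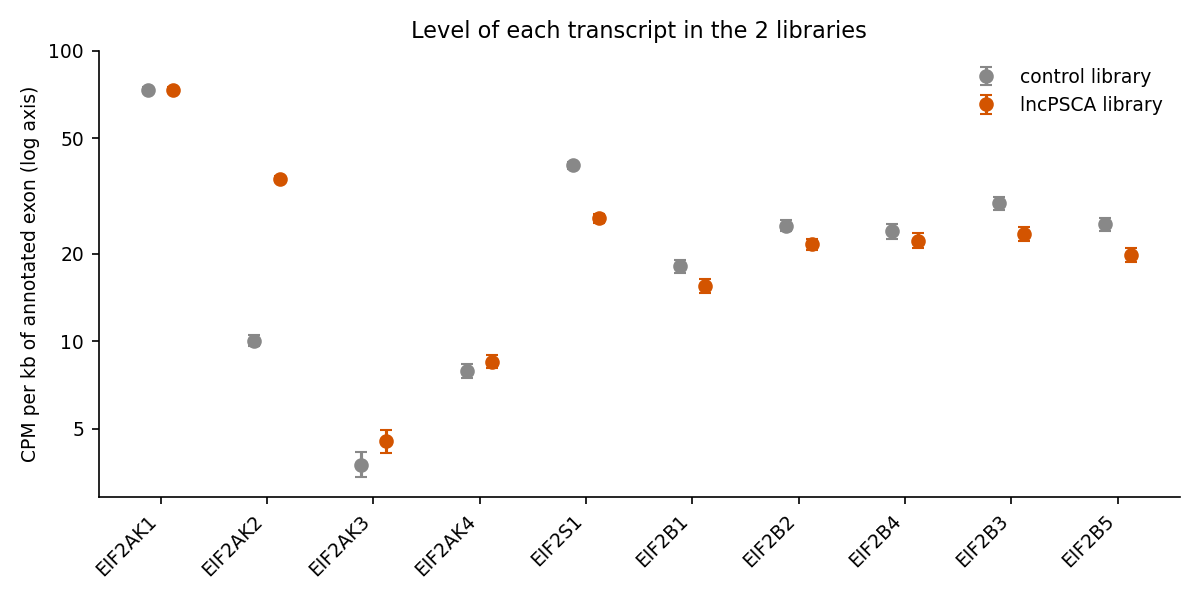
CPM per kb of annotated exon (log axis) of each gene in the control library (grey) and the lncPSCA library (orange), with exact 95% Poisson counting intervals. EIF2AK2 moves from 10.0 to 36.2 and passes EIF2S1 and the eIF2B subunits, EIF2S1 moves from 40.3 to 26.5, and EIF2AK1 stays at 73.5.

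The transcript of the substrate was less abundant in the lncPSCA library but did not meet the rule. EIF2S1 (ENSG00000134001), encoding eIF2 alpha, had 4459 and 3269 reads, or 211 and 139 CPM, a fold of 0.658 (0.629 to 0.688). Its log2 ratio was -0.60, and 5.27% of measured genes had a smaller one. Genes with a mean CPM within 2-fold of that of EIF2S1 had a median of -0.14. Centred along mean expression, its log2 ratio was -0.45. At a limit of 1.5-fold, with an interval beyond 1, EIF2S1 was called lower, as were 835 of all measured genes (5.41%). EIF2S1 shares 253 exon bases (4.82%) with ATP6V1D on the opposite strand, which had 955 and 789 reads and a log2 ratio of -0.43. The part of that overlap in the EIF2S1 value was not tested.

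The subunits of the eIF2 complex had unequal ratios. EIF2S2, the beta subunit, had 4813 and 5182 reads, a fold of 0.966 (0.929 to 1.01), and EIF2S3, the gamma subunit that binds GTP and the tRNA, had 3222 and 3293 reads, a fold of 0.917 (0.873 to 0.963). Set against EIF2S2 within each library, EIF2S1 went from 0.926 to 0.631 reads per read, a change of 0.681-fold (0.641 to 0.723). Against EIF2S3 it went from 1.38 to 0.993, a change of 0.717-fold (0.671 to 0.767). CDC123, which is needed to assemble the eIF2 complex, had 4336 and 3215 reads and a fold of 0.665 (0.636 to 0.697). The ratio of EIF2S1 to CDC123 was 1.03 in control and 1.02 in lncPSCA. EIF5, which promotes GTP hydrolysis by eIF2, had 441 and 379 CPM, a fold of 0.861 (0.836 to 0.886). None of these 4 partners met the rule, and their median log2 ratio was -0.17. EIF2S2 and EIF2S3 have copies with reads, the pseudogene EIF2S2P4 (286 and 292 reads) and EIF2S3B (98 and 77 reads), so the split of shared reads is uncertain for both.

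The transcripts of PKR and of its substrate had ratios on opposite sides of 1. There were 0.489 reads of EIF2AK2 for each read of EIF2S1 in control and 2.68 with lncPSCA, a 5.48-fold difference (5.13 to 5.85). The ratio of EIF2AK1 to EIF2S1 also differed, from 1.55 to 2.36, or 1.52-fold (1.44 to 1.61), with EIF2AK1 itself at the same CPM.

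The 5 subunits of eIF2B all had log2 ratios below 0, and none met the rule. A ratio below 0 was found for 51.9% of all measured genes. The median of the 5 was -0.23, against -0.02 for all measured genes. Genes with a mean CPM within 2-fold of each subunit had medians from -0.12 to -0.08. Centred along mean expression, the median of the 5 was -0.10, with values from -0.25 (EIF2B5) to -0.01 (EIF2B4). The counting interval lay wholly below 1 for 4 of the 5, and for 32.1% of all measured genes. EIF2B3 and EIF2B5 encode the gamma and epsilon subunits, of which epsilon carries the exchange activity and gamma forms the catalytic subcomplex with it. EIF2B3 (ENSG00000070785) had 1372 and 1197 reads, or 65.0 and 50.9 CPM, a fold of 0.783 (0.724 to 0.847). EIF2B5 (ENSG00000145191) had 1561 and 1362 reads, or 74.0 and 57.9 CPM, a fold of 0.783 (0.728 to 0.843). The ratio of EIF2B3 to EIF2B5 reads was 0.879 in both libraries.

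EIF2B1, EIF2B2 and EIF2B4 encode the alpha, beta and delta subunits, the regulatory part that senses phosphorylated eIF2. EIF2B1 (ENSG00000111361) had 1332 and 1268 reads, or 63.1 and 53.9 CPM, a fold of 0.854 (0.790 to 0.923). EIF2B2 (ENSG00000119718) had 2276 and 2189 reads, or 108 and 93.1 CPM, a fold of 0.863 (0.814 to 0.916). EIF2B4 (ENSG00000115211) had 1089 and 1125 reads, or 51.6 and 47.9 CPM, a fold of 0.927 (0.852 to 1.01), with 1 inside its interval. All 3 regulatory subunits lay closer to 1 than the 2 catalytic ones. Reads of the catalytic subunits per read of the regulatory ones went from 0.624 to 0.558, a change of 0.894-fold (0.836 to 0.957). This grouping of the subunits was compared after their values had been seen. EIF2B1 shares 536 exon bases (15.4%) with DDX55 on the opposite strand (955 and 799 reads), and EIF2B2 shares 164 (3.80%) with the antisense gene AL049780.1 (552 and 486 reads). In addition, 25.5% of the EIF2B2 exon length lies opposite AL049780.3, a gene not used here. EIF2B4 shares 103 exon bases (4.78%) with the antisense gene AC074117.1, which had 366 and 346 reads. EIF2B3, EIF2B5 and EIF2AK4 share no exon bases with another gene in this annotation.

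Per kb of exon the eIF2B subunits lay close together, from 18.1 (EIF2B1) to 29.9 (EIF2B3) CPM in control and from 15.5 to 23.4 in the lncPSCA library. In the control library EIF2B5 (25.3), EIF2B2 (25) and EIF2B4 (23.9) had overlapping counting intervals, so their order is not resolved. In the lncPSCA library each interval overlapped the next in the order EIF2B3 (23.4), EIF2B4 (22.2), EIF2B2 (21.6) and EIF2B5 (19.8). The spread and the order of the subunits depended on the length used. Per kb of coding sequence they ran from 31.6 (EIF2B4) to 102 (EIF2B2) in control. In lncPSCA they ran from 26.5 (EIF2B5) to 88.4 (EIF2B2) on that basis. EIF2S1 stood above all of them in both libraries, at 40.3 and 26.5 per kb of exon and at 224 and 147 per kb of coding sequence. PKR ranked 8th of the 10 genes in control and 2nd in lncPSCA per kb of exon, and 5th and 1st per kb of coding sequence.

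**Figure D3:**
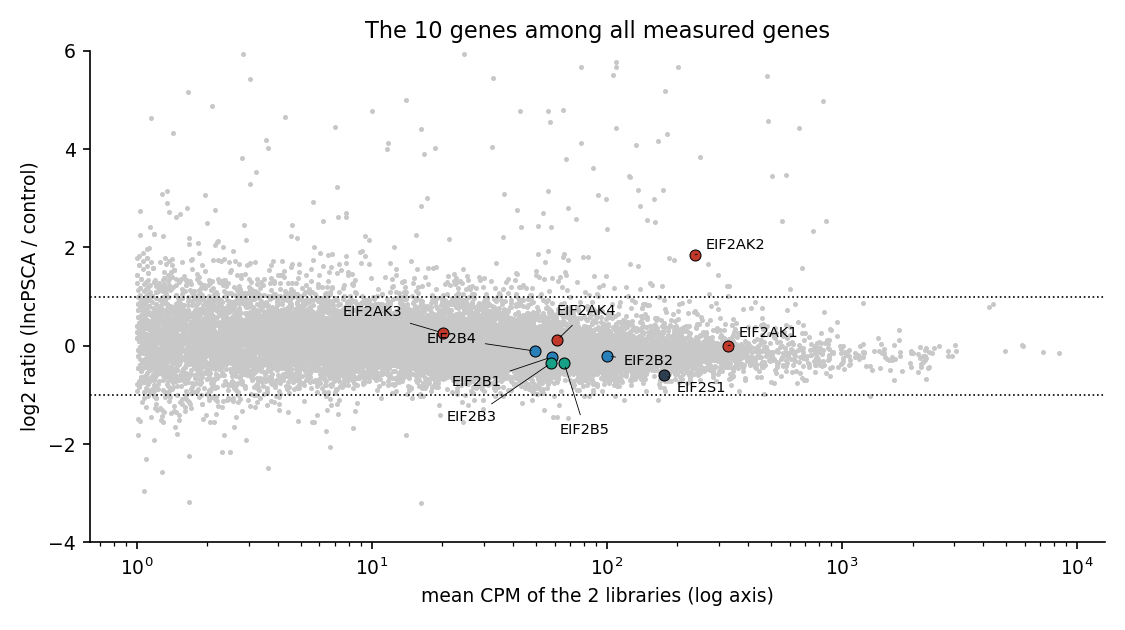
Log2 ratio of lncPSCA over control against mean CPM of the 2 libraries (log axis) for all measured genes (grey) and the 10 genes (coloured by role, labelled); dotted lines mark 2-fold and 9 genes lie outside the plotted range. EIF2AK2 stands above the dotted line at 1.85, and the other 9 genes lie between -0.60 and 0.26, within the main cloud.

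Other initiation factors gave the setting for the small differences of eIF2 and eIF2B. Of 25 such factors (eIF1, eIF3, eIF4, eIF5B and eIF6 genes) none met the rule, 22 had a log2 ratio below 0, and the median was -0.24, close to the eIF2B median of -0.23. EIF4B, a cofactor of the eIF4A helicase and the most abundant by CPM, had a fold of 0.729 (0.715 to 0.744), and EIF4H, a related cofactor, had 0.765 (0.749 to 0.781). Genes with a mean CPM within 2-fold of that of EIF4B, or of that of EIF4H, had a median log2 ratio of -0.15. Ratios below 0 were thus common at such levels. The lowest log2 ratio of this list was -0.47, so EIF2S1 at -0.60 and CDC123 at -0.59 lay below all 25. Stress granule proteins, which gather stalled initiation complexes after eIF2 phosphorylation, had a median of -0.24 with none of 7 meeting the rule. In that list PABPC1, the poly(A)-binding protein, had 715 and 607 CPM, and CAPRIN1, a partner of G3BP1, had 298 and 333 CPM.

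The phosphatase that reverses the kinases has a catalytic subunit, PP1, and a targeting subunit. None of the 5 genes met the rule. PPP1R15B, the constitutive targeting subunit CReP, had 102 and 133 CPM, a fold of 1.31 (1.24 to 1.38). PPP1R15A, the stress-induced targeting subunit GADD34, had 108 and 126 CPM, a fold of 1.17 (1.10 to 1.23). PPP1CA, a PP1 catalytic subunit, had 257 and 233 CPM, a fold of 0.906 (0.872 to 0.940). The targeting subunits thus lay above 1, and all 3 catalytic subunits lay below it.

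Among 6 regulators and partners of PKR, 1 was higher. ADAR, which edits double-stranded RNA and so limits PKR activation, had 7182 and 24007 reads, or 340 and 1021 CPM, and was 3.0-fold higher (2.92 to 3.08). The ratio of EIF2AK2 to ADAR reads was 0.303 in control and 0.365 in lncPSCA, 1.20-fold larger (1.14 to 1.27), so the difference between the libraries was somewhat larger for the kinase. PRKRA, the activator PACT, had 50.3 and 41.6 CPM, a fold of 0.827 (0.758 to 0.903), and TARBP2, the inhibitor TRBP, had a fold of 0.821 (0.769 to 0.877). DNAJC3, the inhibitor P58IPK, had 438 and 459 reads, a fold of 0.940 (0.823 to 1.07). Neither the activator nor either inhibitor met the rule.

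Genes acting on the other kinases met the rule in no case. Of 5 such genes, GCN1, which GCN2 needs for its activation, had 266 and 275 CPM, a fold of 1.04 (1.0 to 1.07). HSPA5, the chaperone BiP that holds PERK inactive, had 733 and 641 CPM, a fold of 0.874 (0.854 to 0.894). DELE1, which relays mitochondrial stress to HRI, had a fold of 1.13 (1.02 to 1.25). Of the endoplasmic reticulum stress genes outside the PERK branch, XBP1, whose mRNA is spliced by IRE1, had 165 and 239 CPM, a fold of 1.45 (1.39 to 1.51). The sensors ERN1 (IRE1) and ATF6 had folds of 0.944 (0.850 to 1.05) and 1.08 (1.0 to 1.16), so PERK, IRE1 and ATF6 all lay within 1.5-fold of control.

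Downstream of eIF2, ATF4 itself had 512 and 625 CPM, a fold of 1.22 (1.19 to 1.25). Of 11 genes of the list of ATF4 and its targets, 5 were higher and none was lower. Over all measured genes the shares were 3.02% higher and 0.596% lower. The other 6 genes of the list did not meet the rule, and the list median log2 ratio was 0.89. The 5 higher genes included CHAC1 at 6.94-fold (6.22 to 7.76), DDIT4 at 5.81-fold (5.65 to 5.98), SESN2 at 3.51-fold (3.24 to 3.81) and SLC7A11 at 2.58-fold (2.37 to 2.82). These genes also answer to other inputs, and whether any eIF2 kinase had a part in them was not tested. ATF5, a related factor, was the one gene of the list with a log2 ratio below 0, at -0.72.

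Against other genes that act on double-stranded RNA, the difference in PKR was small and its control level high. Of 9 measured genes of that list 8 were higher, with a list median log2 ratio of 5.51, against 1.85 for EIF2AK2. OAS2, which makes an oligoadenylate second messenger, had 45 and 8858 reads, a 177-fold difference (132 to 242), and OAS1 and OASL were 55.2-fold (44.4 to 69.6) and 51.4-fold (41.6 to 64.2) higher. IFIH1, the sensor MDA5, had 0 and 88 reads, 26.3-fold higher against a floor of 3 control counts, and the lower end of its counting interval was 21.0-fold. Per kb of exon, EIF2AK2 at 10.0 CPM ranked 2nd in control among these 10 genes, itself and ADAR, behind ADAR at 46.3 and ahead of OAS3 at 2.65. In the lncPSCA library it ranked 7th at 36.2 CPM, below OAS3 (120), OASL (65.7), OAS2 (60.4), OAS1 (52.1) and RIGI (47.7) as well as ADAR (139). The order in the lncPSCA library depended on the length used. Per kb of coding sequence EIF2AK2 (225) lay below only OAS3 (289) and ADAR (278) there. It lay above OAS2 (173), OAS1 (173), OASL (139) and RIGI (74.8). In control EIF2AK2 (62.5) lay between ADAR (92.5) and OAS3 (6.39) on that basis too. ZBP1, a sensor of Z-form nucleic acids, had 0 and 2 reads and was not measured.

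**Figure D4:**
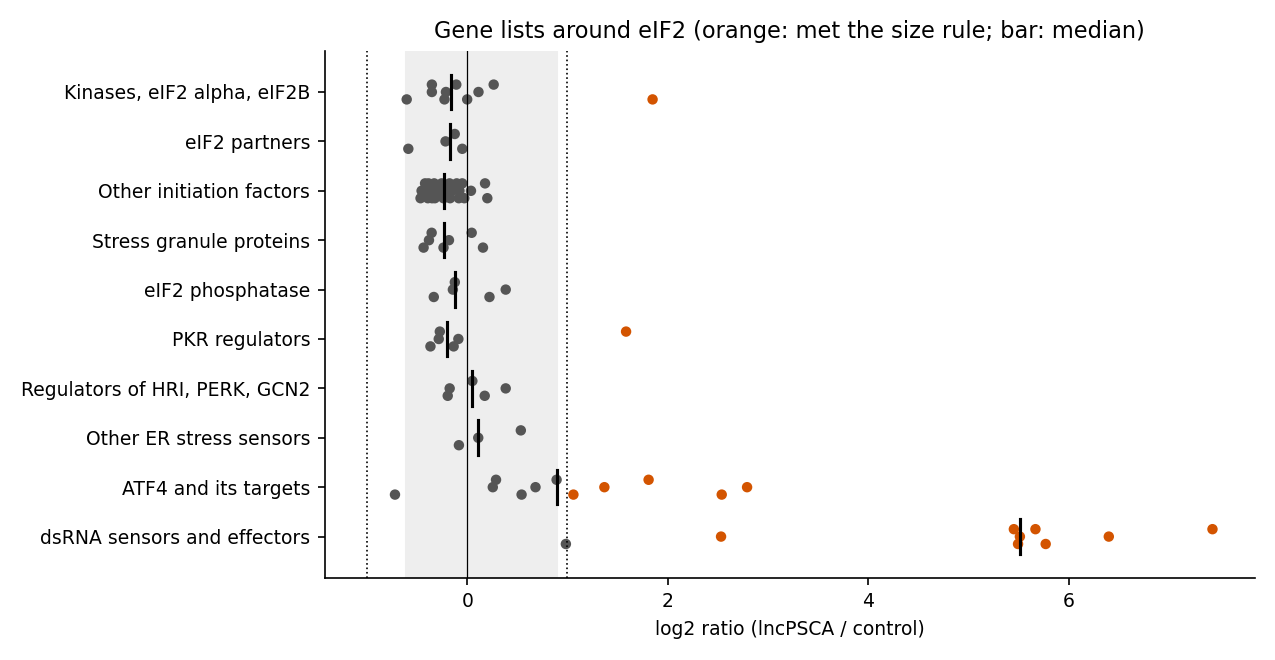
Log2 ratio (lncPSCA over control) of each measured gene in the 10 genes described and in 9 lists around them; orange points met the size rule, the bar is the list median, the grey band spans the 5th to 95th percentiles of all measured genes and dotted lines mark 2-fold. The medians of the initiation factor lists lie left of 0, with 3 of the 25 other initiation factors to its right, and the double-stranded RNA list has its median at 5.51; the position of IFIH1 depends on the pseudocount, since its control count was 0.

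The genes most like EIF2AK2 were sought among the 1480 named genes whose mean CPM lay within 2-fold of its own. With 2 libraries, likeness means only that a log2 ratio was among the nearest to that of EIF2AK2 (1.85). The nearest were PNPT1 (1.78), a mitochondrial RNA-processing exonuclease, and RNF213 (1.75), a large ubiquitin ligase. ABCA1 (1.67), a cholesterol exporter, HLA-E (1.66), a non-classical class I molecule, and TRIM25 (1.43), a ubiquitin ligase of the RIG-I pathway, followed. The counting intervals of ABCA1 (2.99 to 3.39), HLA-E (3.04 to 3.31) and TRIM25 (2.60 to 2.81) lay wholly below that of EIF2AK2 (3.44 to 3.78). Of the 1480 genes, 16 had a larger ratio than EIF2AK2.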

How the data were processed

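Reads of 2 RNA-seq libraries were counted per Ensembl gene by the authors, who deposited 1 table of raw counts (whole numbers, 63677 genes, 1 column per library). The submitters' processing notes list TopHat2, HTSeq and hg19; the versions, the annotation release, the strand setting and how multiply mapped reads were treated are details not given in the sources used here. Symbols came from a table of Ensembl identifiers (81.95% matched). Lengths and overlaps came from GENCODE release 29 (GRCh38), a different build, matched by identifier; promoters came from RefSeq.

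Library sizes were scaled by TMM in edgeR 4.0.16 (control factor 0.979, lncPSCA factor 1.02). Folds are ratios of CPM, with exact Clopper-Pearson counting intervals (SciPy 1.17.1); ratios between genes within a library have conditional exact intervals. Since PCR copies of one molecule cannot be recognised without molecular identifiers, the intervals may be too narrow. The arithmetic of the rule was checked on simulated counts that held counting error only, so the check does not cover differences between cultures. With 1 library per group no test was possible. The alternatives tried were scaling by the size factors of DESeq2 1.42.0, by library totals or by upper quartiles, other CPM minimums and pseudocounts, 2 centrings and a 1.5-fold limit.

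The members, lists and rule were chosen with earlier results of these data known. All 10 members are named, the 5 genes nearest EIF2AK2, and from each list up to 4 genes meeting the rule or its 2 most abundant. Other genes (EIF2S3, CDC123, PPP1R15A, PRKRA, TARBP2, DNAJC3, DELE1, ERN1, ATF4, ATF5, OAS3, RIGI, TLR3, ZBP1, overlapping genes and copies) were named after their values were seen. One listed gene is not reported here by name.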

Additional observations from a re-analysis of the deposited data

How the results depend on the processing

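EIF2AK2 was higher under all 10 alternatives, with log2 ratios from 1.58 (centred along transcript length) to 1.99 (centred along mean expression). The other CPM minimums and the 1.5-fold limit do not alter its ratio, and the other pseudocounts left it at 1.85. For a gene of this abundance and fold, those alternatives could not change the call. The number of the 10 genes called higher was 1 under every alternative, and the number called lower was 0 except under the 1.5-fold limit, where it was 1 (EIF2S1). EIF2S1 and the 5 eIF2B genes kept log2 ratios below 0 throughout: EIF2S1 ran from -0.64 to -0.45, and the eIF2B gene nearest 0, EIF2B4, from -0.13 to -0.01. EIF2AK1, at 0, took either sign (-0.03 to 0.14). Over all genes, a minimum of 5 CPM left 284 higher and 46 lower in place of 467 and 92, no minimum gave 150 lower, and the 1.5-fold limit gave 1624 higher and 835 lower. No paired analysis was possible because each group has 1 library. Of the 10 genes PERK, with the fewest reads, had the widest counting interval relative to its fold; the spread between cultures was not measured.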
